A study of Arabidopsis thaliana with 12 samples.

Results

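PRA1.B6 (AT5G07110) and CSLA01 (AT4G16590) are Arabidopsis thaliana genes of the endomembrane system and of cell wall polysaccharide synthesis, measured here on an array in the psak mutant and in the wild type. Each was represented by 1 probe that lists no other gene in the platform's probe table, 2 of the 692 single-gene probes on an array of 3439. Both genes were chosen because an earlier analysis of the same 12 samples had found a difference between psak and WT, so that their psak and WT values are given as a description without a test. The groups were 6 samples of the psak mutant, which lacks the photosystem I protein PSI-K, and 6 WT samples, all in ecotype Columbia 0 and all measured from total RNA. The mutant allele, the tissue and the growth conditions are not given in the sources used here, nor is it stated whether samples of a genotype came from separate plants. The design asks how transcript levels change when PSI-K is missing.

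PRA1 proteins are small membrane proteins that bind Rab GTPases carrying a prenyl anchor, the switches that direct transport vesicles to their target membranes. Arabidopsis has a large PRA1 family, and PRA1.B6 is a Golgi protein that has been described as an inhibitor of protein export from the endoplasmic reticulum. CSLA01 belongs to the cellulose synthase-like A group, glycosyltransferases of the Golgi whose studied members build the mannan backbone of hemicelluloses from GDP-mannose. PSI-K, the protein missing in psak, is a membrane subunit of photosystem I near its antenna.

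Intensities were deposited on a linear scale from 0 to 100, with 13% to 19.4% of the probes of a sample at exactly 0 and summed intensities of 2967 to 3460. The psak samples 5 and 6 stood apart, with 18.1% and 19.4% of their probes at 0 and log2 medians of the probes above 0 of -2.15 and -2.20. In the other psak samples 13% to 13.6% of the probes were at 0, and these medians lay between -1.39 and -1.25. Samples of neighbouring number within a genotype (1 and 2, 3 and 4, 5 and 6, called number pairs here) tended to be alike, as given below for PRA1.B6 and the array, and the labels do not say how they are related. By the SD of log2 differences over all probes, samples 3 and 4, and 5 and 6, were nearest to each other in both genotypes. By that measure psak 1 was nearer to psak 3 (0.77) than to psak 2 (0.82), and WT 1 nearer to WT 3 (1.02) than to WT 2 (1.08). No single-gene probe names PSAK, so its level could not be used to check the genotype labels. Of the markers listed for leaf mesophyll, root, flower and vascular tissue, PRK alone had a single-gene probe, so the tissue could not be checked either.

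PRA1.B6 was brighter in every psak sample than in any WT sample. Its deposited intensity was 13.4, 13.7, 6.63, 8.18, 6.30 and 5.75 in psak samples 1 to 6, against 5.05, 5.42, 3.81, 4.09, 1.65 and 1.66 in WT samples 1 to 6. The lowest psak sample was number 6 and the highest WT sample number 2, and they differed by a factor of 1.06. The means were 9.0 ± 3.63 in psak and 3.61 ± 1.63 in WT (SD, n = 6 each), a ratio of 2.49. After quantile normalization on the log2 scale the mean was 3.09 ± 0.55 in psak and 1.55 ± 0.79 in WT, a log2 fold change of 1.53 ± 0.37 (SE). All psak samples lay above all WT samples on 3.24% of the 2993 probes with at least 2 values above 0 in each genotype. Because the gene was chosen on this contrast, nothing is read from that share. In total RNA from a tissue that is not given, a change in the number of cells that carry a transcript and a change per cell cannot be told apart.

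**Figure D1:**
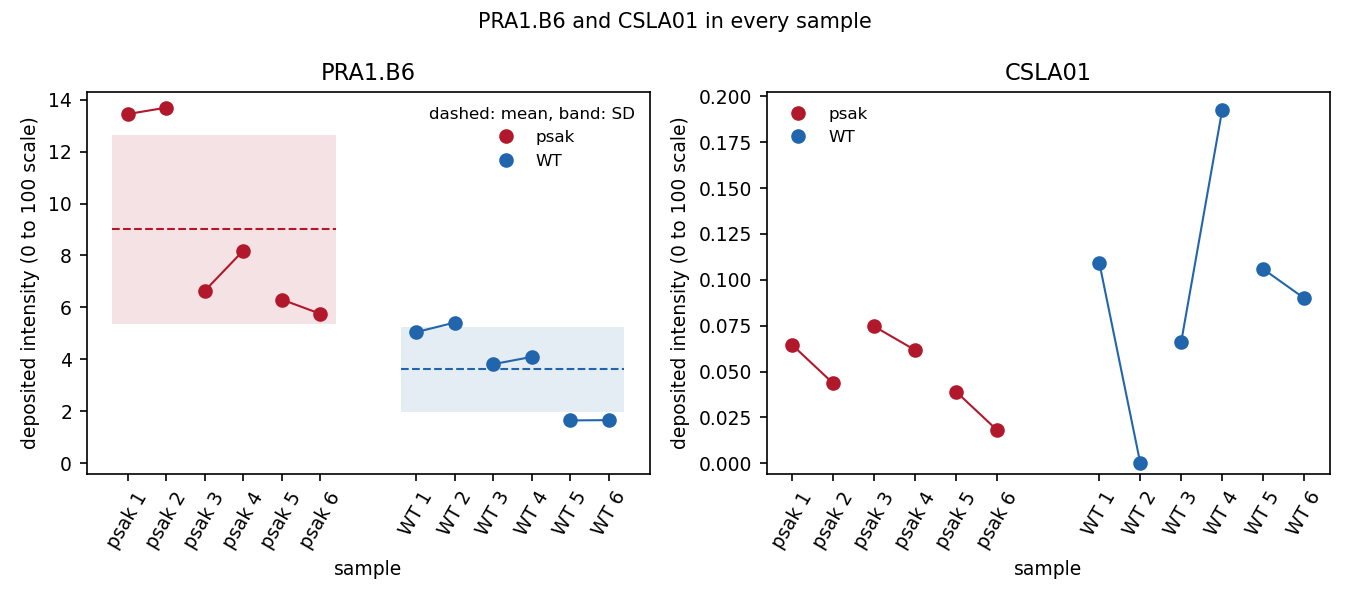
Deposited intensity of PRA1.B6 (left) and CSLA01 (right) in each of 6 psak and 6 WT samples, with lines joining the samples of a number pair. For PRA1.B6 the dashed lines and bands give the mean and SD of each genotype, and all psak points lie above all WT points. For CSLA01 the sample WT 2 stands at 0 and the genotypes overlap.

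The genotypes stayed apart for PRA1.B6 on the other scales that were tried. As a share of the summed intensity of its sample, the probe stood between 0.185% and 0.401% in psak and between 0.0527% and 0.157% in WT. Relative to the median of the probes above 0, it stood at 17.4 to 33.2 times that median in psak and at 4.02 to 17.1 times in WT. The narrowest gap between the genotypes was on this last scale, between psak 3 and WT 2. Without psak samples 5 and 6 the log2 fold change was 1.80, and without WT samples 5 and 6, the lowest WT samples, it was 1.07.

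Within each genotype PRA1.B6 was highest in numbers 1 and 2 and lowest in numbers 5 and 6. The mean intensity of numbers 1 and 2 was 13.6 in psak and 5.23 in WT, a ratio of 2.59. That of numbers 3 and 4 was 7.41 in psak and 3.95 in WT, a ratio of 1.87. That of numbers 5 and 6 was 6.03 in psak and 1.65 in WT, a ratio of 3.65. The highest and lowest samples differed by a factor of 2.38 in psak and 3.29 in WT, beside the ratio of 2.49 between the genotype means. On the normalized log2 scale the differences between psak and WT were 1.5, 1.17 and 1.93 for the 3 number pairs in that order.

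The samples of a number pair hardly differed in PRA1.B6. Their intensities differed by a factor of 1.02, 1.23 and 1.1 in psak and 1.07, 1.07 and 1.01 in WT. Of the variation of the gene inside genotypes, 1.94% lay between the samples of a pair and the rest between pairs. The median over 2358 probes above 0 in all samples was 26.1%, and over the 855 of these among the brightest 25% of the array it was 13.3%. A value lower than that of PRA1.B6 was found for 3.01% of the 2358 probes and for 7.13% of the 855. The SE of the fit takes the 12 samples as independent. The residual SD of PRA1.B6 was 0.68 on the log2 scale, against a median of 0.31 for the brightest 25% of the array, to which its probe belongs.

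CSLA01 was dim throughout and dimmer in most psak samples than in WT. Its deposited intensity was 0.0645, 0.0436, 0.0746, 0.0617, 0.0391 and 0.0181 in psak samples 1 to 6, against 0.109, 0, 0.0664, 0.193, 0.106 and 0.0900 in WT samples 1 to 6. WT sample 2 was listed at 0, and 5 of 6 psak samples lay below every WT sample that was above 0. The exception was psak 3, which was brighter than WT 3, so the genotypes overlapped even with WT 2 left out. Relative to the median of the probes above 0 in the same sample, psak 3 stood at 0.196 and WT 3 at 0.200, so on that scale all 6 psak samples lay below the 5 WT samples. All psak samples lay below all WT samples in deposited intensity on 7.45% of the tested probes, and CSLA01 was not among them. The mean was 0.0503 ± 0.0206 in psak (SD, n = 6) and 0.113 ± 0.0478 in the WT samples above 0 (SD, n = 5), a ratio of 0.446. With WT 2 counted at 0, the ratio of psak to WT was 0.535.

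On the normalized log2 scale, where values of 0 are left out, CSLA01 averaged -4.49 ± 0.37 in psak and -3.28 ± 0.63 in WT (SD, n = 6 and 5). The log2 fold change was -1.21 ± 0.29 (SE). With an offset of 0.05 added to every intensity, which keeps the sample at 0, it was -0.45 ± 0.34. The brightest WT sample, number 4, also mattered: without it the log2 fold change was -0.96. The value was below 0 in each of the 22 alternatives that gave one, but all of them except the offset left out the 0 of WT 2. The offset of 0.05 is close to the psak mean intensity of 0.0503, and no other offset was tried. On the log2 scale, the direction with WT 2 kept thus rests on that choice. In deposited intensity, with WT 2 counted at 0, the mean was 0.0503 in psak and 0.0940 ± 0.0628 in WT (SD).

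**Figure D2:**
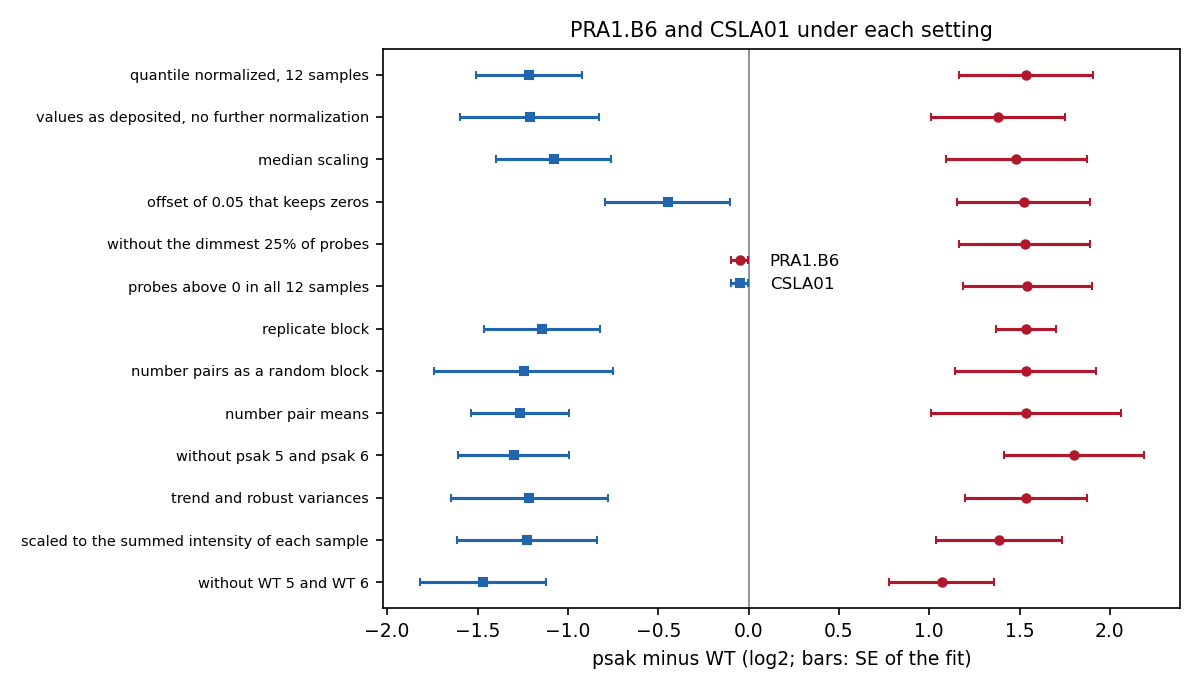
Log2 difference between psak and WT for PRA1.B6 (circles) and CSLA01 (squares) under each setting, with the SE of the fit as bars. PRA1.B6 lies between 1.07 and 1.80 and CSLA01 between -1.47 and -0.45; CSLA01 has no value in settings that leave out dim probes or probes with a 0.

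The number pairs of CSLA01 differed in size according to the scaling. With the intensities as deposited, the log2 differences between psak and WT were -1.04, -0.74 and -1.88 in numbers 1-2, 3-4 and 5-6. After quantile normalization they were -1.68, -1.43 and -0.68, so the pair with the largest difference became the one with the smallest. In numbers 1 and 2 the WT value is that of sample 1 alone, and with sample 2 counted at 0 the mean intensities were 0.0541 in psak and 0.0546 in WT. The sample psak 5, at an intensity of 0.0391, and WT 3, at 0.0664, both had a normalized value of -3.85. Without psak samples 5 and 6 the log2 fold change was -1.30. Inside number pairs the CSLA01 intensities differed by a factor of 1.48, 1.21 and 2.16 in psak. In WT the factor was 2.90 in numbers 3-4 and 1.18 in numbers 5-6.

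**Figure D3:**
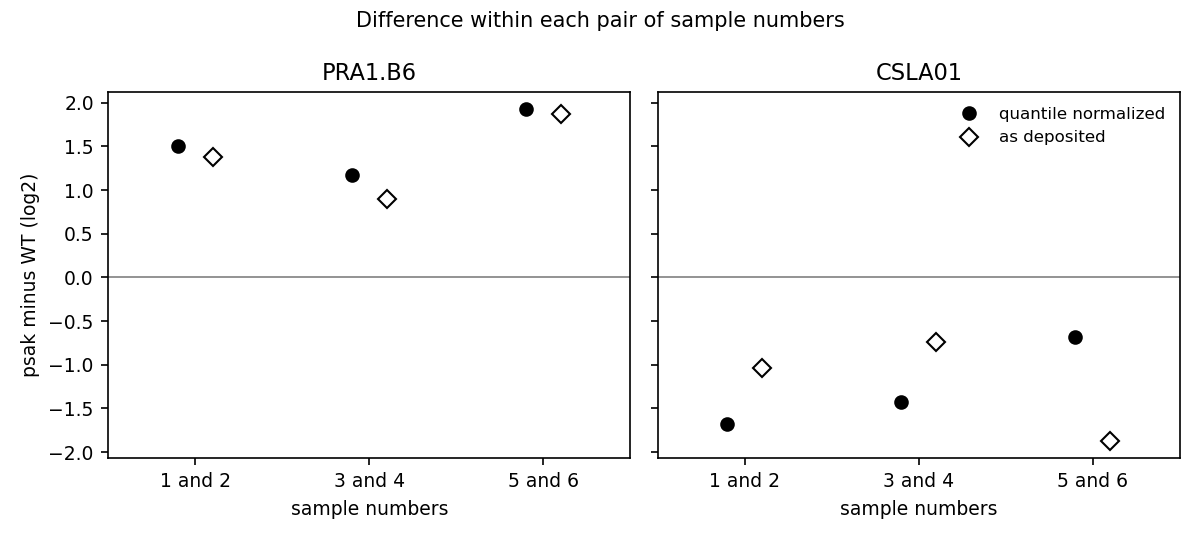
Log2 difference between psak and WT within sample numbers 1-2, 3-4 and 5-6 for PRA1.B6 (left) and CSLA01 (right), after quantile normalization (filled circles) and as deposited (open diamonds). PRA1.B6 is above 0 in all 3 pairs on both scales. CSLA01, with the 0 of WT 2 left out, is below 0 in all 3, and numbers 5-6 have its largest difference as deposited and its smallest after normalization.

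PRA1.B6 gave signal near the top of every array and CSLA01 signal near the bottom. In psak, 97.1% to 98.8% of the probes above 0 in the same sample were dimmer than PRA1.B6, and in WT 89.9% to 96.8%. For CSLA01 4.01% to 8.63% were dimmer in psak and 8.63% to 30.2% in the 5 WT samples above 0. The CSLA01 probe falls in the dimmest 25% of the array, where 54.9% of the values in psak and 56.9% of those in WT were 0 and 90.6% of the 860 probes had a 0 in some sample. CSLA01 itself was at 0 in 1 of 12 samples. With that value left out, its residual SD was 0.50, against a median of 1.09 for the 419 tested probes in that dimmest 25%. Because the gene was chosen on this contrast and its 0 is not counted, nothing is read from that SD. These positions describe signal on the array and are not a ranking of transcript abundance.

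Among probes of related genes, 1 of 7 passed the test between psak and WT, against 14.8% of the 2993 tested probes (limma, adjusted p under 0.05), 8.12% higher and 6.72% lower in psak. PRA1.B3 (AT5G05380), a family member from the same B group and the only other PRA1 gene with a probe of its own, had intensities of 1.15, 0.971, 0.738, 0.813, 0.672 and 0.746 in psak and 1.07, 1.14, 1.1, 1.07, 0.569 and 0.659 in WT. Its means were 0.849 ± 0.181 in psak and 0.936 ± 0.252 in WT (SD, n = 6 each), and the genotypes overlapped. The log2 fold change of PRA1.B3 was 0.16 ± 0.23 (limma adjusted p = 0.684), and with the values as deposited it was -0.11. PRA1.B3 and SECE1, a subunit of the plastid Sec translocase and so not of the endomembrane system, were the members other than PRA1.B6 that symbols and synonyms placed in the endomembrane list. Neither of these 2 passed. Gene descriptions were not searched, so other endomembrane genes on the array could be missed. SECE1 stood at 0.523 ± 0.149 in psak and 0.548 ± 0.176 in WT (SD, n = 6 each). On the normalized log2 scale SECE1 differed by 0.12 ± 0.19 (limma adjusted p = 0.699), or -0.066 with the values as deposited. The median of all tested probes was -0.0026 on the normalized scale and -0.11 with the values as deposited. By symbol or synonym, no single-gene probe met the terms of the cell wall or glycosyltransferase list apart from CSLA01. Descriptions were not searched for these lists either, so the empty lists do not show that the array lacks such genes.

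Further probes list several genes of one of the families and are given without a gene name. Of 4 such probes for PRA1 genes none passed in the fit of 12 samples, with log2 fold changes of 0.28, -0.83, -0.27 and 0.30 (limma adjusted p = 0.363, 0.0939, 0.259 and 0.593). The second of them stood at 0.293 ± 0.0901 in psak and 0.588 ± 0.300 in WT (SD, n = 6 each), and its limma adjusted p ran from 0.0484 to 0.465 over the alternatives, so that it passed in at least 1 of them. Of 2 probes that list only genes of the cellulose synthase-like C group, glycosyltransferases related to xyloglucan synthesis, 1 rose. It stood at 1.75 ± 0.316 in psak and 1.52 ± 0.124 in WT (SD, n = 6 each), a normalized log2 difference of 0.48 ± 0.13 (limma adjusted p = 0.0324). When each number pair was treated as a random block it did not pass (adjusted p = 0.114 in limma, range over the alternatives 0.0127 to 0.566; 5.15% of all tested probes did), and its value was 0.19 with the values as deposited. The other differed by 0.088 ± 0.36 on that scale (limma adjusted p = 0.899). These probes were picked by name, and how specific each is within its family was not tested.

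**Figure D4:**
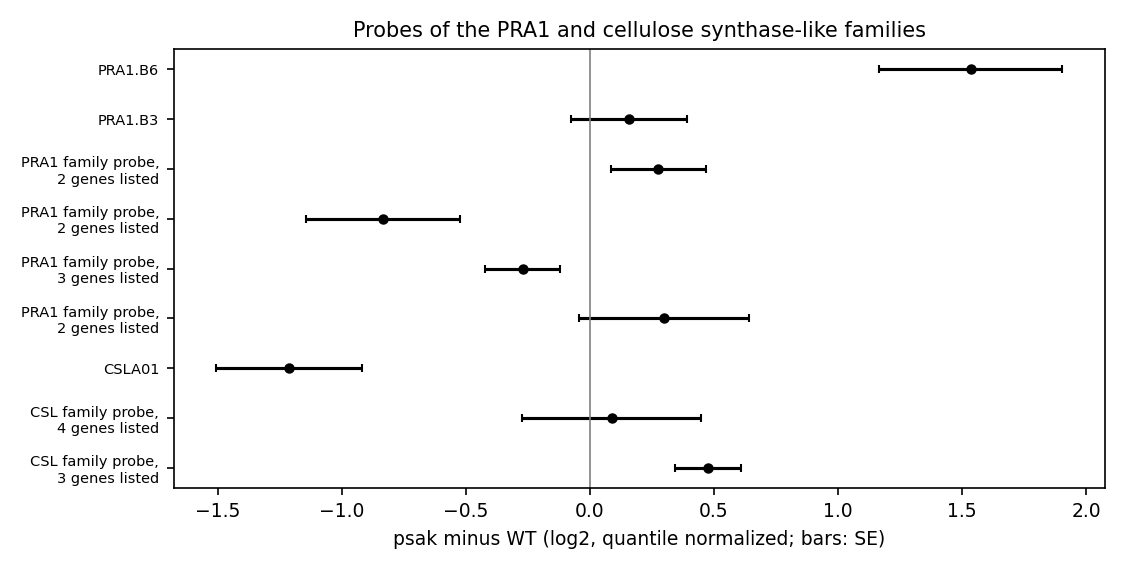
Log2 difference between psak and WT (quantile normalized, bars SE) for the probes of the PRA1 and cellulose synthase-like (CSL) families, with probes that list several genes marked by their number of genes. PRA1.B6 at 1.53 and CSLA01 at -1.21, which were chosen for their difference, are the outermost points; PRA1.B3 stands at 0.16.

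Inside the genotypes, PRA1.B3 and PRA1.B6 varied alike. After subtracting the mean of each genotype, PRA1.B3 was among the 3 genes most like PRA1.B6 of 560 single-gene probes with at least 10 shared values, with a Pearson r of 0.89 and a Spearman rho of 0.78 over 12 samples. Within psak alone r was 0.74 and within WT 0.96 (n = 6 each), and without the 2 samples farthest from the median it was 0.78. In WT both genes were low in samples 5 and 6, PRA1.B3 at 0.569 and 0.659 against 1.07 to 1.14 in the other 4. Samples of a number pair are alike in both genes, so these r values rest on fewer than 12 separate points and are given as a description.

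The gene most like PRA1.B6 was PSAN, a photosystem I subunit on the lumenal side, where plastocyanin docks. Its r was 0.97 over the 12 samples and 0.95 after subtracting genotype means, with 0.97 within psak and 0.98 within WT (n = 6 each). Its intensities were 9.77, 8.89, 5.82, 6.42, 5.93 and 4.29 in psak and 3.6, 3.61, 3.46, 3.35, 1.85 and 1.93 in WT. On the normalized scale PSAN, too, was highest in numbers 1 and 2 and lowest in numbers 5 and 6 of psak, and in WT numbers 5 and 6 lay apart from the other 4. PSBY, a small photosystem II subunit, came second inside the genotypes with r = 0.89 (rho 0.64), although its log2 fold change of 0.38 ± 0.19 did not pass (limma adjusted p = 0.209). The r without subtraction also takes in the genotype difference for which PRA1.B6 was chosen. By that measure, AT5G11010 and AT1G32730 followed PSAN with r of 0.94 and 0.94. The log2 fold change was 1.43 ± 0.25 (SE) for PSAN (limma adjusted p = 0.00366). It was 0.33 ± 0.12 for AT5G11010 and 1.46 ± 0.22 for AT1G32730 (limma adjusted p = 0.0793 and 0.00137). The most opposite genes were AT1G76450 over the 12 samples (r = -0.96) and AT5G10920 inside the genotypes (r = -0.94). The median r over the 560 probes was 0.04, and 23 of them exceeded 0.8.

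**Figure D5:**
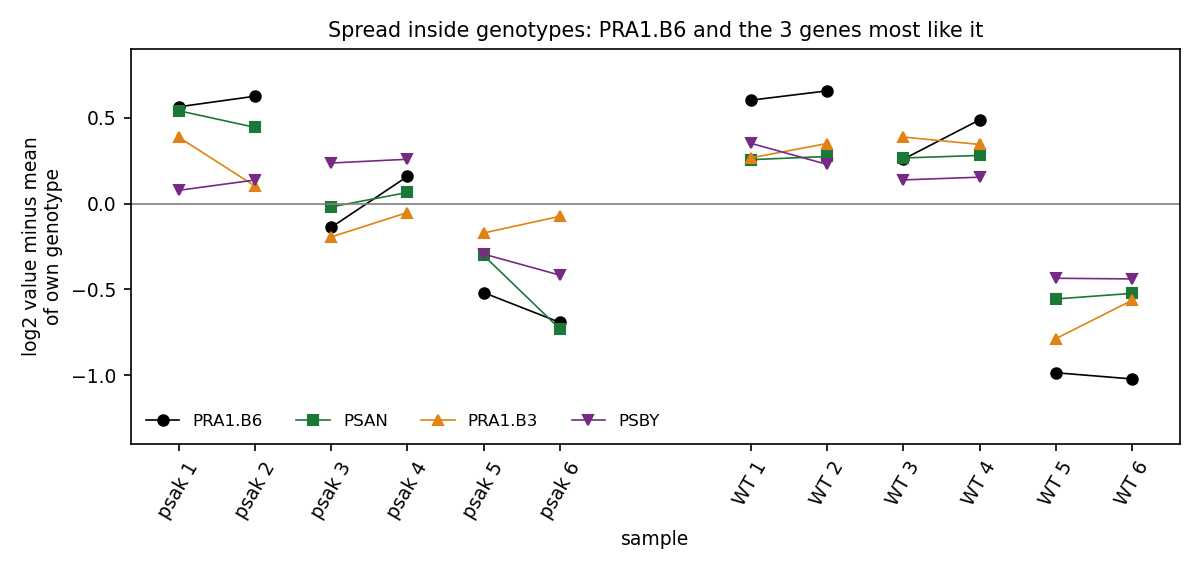
Normalized log2 value of PRA1.B6, PSAN, PRA1.B3 and PSBY in each sample after subtracting the mean of the sample's own genotype, with lines joining the samples of a number pair. All 4 genes are below their genotype mean in samples 5 and 6 of both genotypes, and lowest there except PRA1.B3 in psak.

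CSLA01 had no such close companion. Over the 11 samples with a value, the likest of 542 single-gene probes were AT4G23080, AT4G38490 and AT4G32060, with r of 0.85, 0.84 and 0.84. These r also take in the genotype difference for which CSLA01 was chosen. The named genes were themselves lower in psak, with log2 fold changes of -0.97, -0.59 and -0.92 (limma adjusted p = 0.00364, 0.0494 and 0.000732). Within psak alone the same r were 0.68, 0.36 and 0.47 (n = 6), and within WT they were 0.43, 0.78 and 0.56 (n = 5). After subtracting genotype means the highest r was 0.70, that of AT5G66050, followed by AT4G38490 at 0.65 and AT4G24840 at 0.64 (n = 11, 11 and 10). None of the 542 exceeded 0.8 there, against 13 of 560 for PRA1.B6. The 2 probes differ in brightness, CSLA01 being dim with its 0 left out, and whether this lowers its r was not tested. The most opposite were DRT101 over the samples (r = -0.91, n = 10) and AT1G22850 inside the genotypes (r = -0.85, n = 11). The r of AT1G22850 was -0.65 within psak (n = 6) and -0.92 within WT (n = 5), and -0.29 without the 2 samples farthest from the median. That of DRT101 was 0.97 within psak and -0.93 within WT (n = 5 each).

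Among the 10 protein-coding loci on either side in the TAIR10.1 annotation, PRA1.B6 had no neighbour with a single-gene probe. CSLA01 had 1, AT4G16610, which lies 2 loci away. AT4G16610 stood at 0.257 ± 0.191 in psak and 0.251 ± 0.123 in WT (SD, n = 6 each), 0.43 ± 0.62 apart on the normalized log2 scale (limma adjusted p = 0.676).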

How the data were processed

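The authors deposited 1 linear intensity per probe for each sample, between 0 and 100. Their scanning, background correction and scaling steps are not stated in the sources used here. Gene names come from the platform's probe table and were brought up to date with RefSeq symbols for TAIR10.1 (692 probes list 1 gene, 870 several, 1877 are unlisted; 690 matched). No probe or gene sequences were used. Values of 0 were left out, the rest were taken to log2 and quantile normalized. Probes with at least 2 values in each genotype (2993) were fitted with limma 3.58.1 in R 4.3.3 (lmFit, eBayes, psak minus WT, two-sided, Benjamini-Hochberg adjustment). P-values measure the spread between these samples, which may be technical. On simulated data with 200 of 2993 probes changed, the fit recovered 51% of changes of 1 and 89% of changes of 2 on the log2 scale, with 12 of 152 calls false. The simulated samples varied independently, whereas the real number pairs had a consensus correlation of 0.590. These rates therefore do not carry over to the real samples.

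The genes, lists and tests were chosen with earlier results of these data known. List terms were matched to gene symbols and synonyms alone, because the annotation used had no gene descriptions. List members were named up to 8 per list. For likeness, the 3 most alike and the most opposite single-gene probe by Pearson r were named, over all samples and inside genotypes. Family probes with several genes were added from the names on the array. No list of at least 3 members could be formed, so no median is given for one. Alternatives covered scaling, zeros, dim probes, sample numbers and each sample left out. Figures were drawn with matplotlib 3.10.9.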

Additional observations from a re-analysis of the deposited data

Results flagged for a closer look

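Outliers were sought in 46 groups of 6 intensities. These were PRA1.B6, CSLA01, PRA1.B3, SECE1, the genes named for likeness and the family probes in each genotype, without AT4G16610. Of the 46 groups, 2 held a sample far from the other 5, with a gap to the nearest that exceeded Dixon's critical value of 0.625 as a share of the range. Chance flags about 1 in 20 groups of independent values. One was the probe listing 2 PRA1 genes with a log2 fold change of -0.83, where WT 3 stood at 1.17 and the other WT samples between 0.340 and 0.582 (ratio 0.710). The other was DRT101 in psak, where sample 6 stood at 0 (ratio 0.872). No group of PRA1.B6, CSLA01 or PRA1.B3 was among them.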

How the results depend on the processing

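PRA1.B6 kept its direction in 24 of 24 alternatives (1.07 to 1.80) and CSLA01 in 22 of 22 (-1.47 to -0.45). The filters on dim probes and on probes with a 0 left CSLA01 out. Only the offset kept the 0 of WT 2, and with it the value of CSLA01 moved by more than the spread between samples (-0.45). The other alternatives therefore do not show how that 0 bears on the direction. Leaving out 1 sample gave 1.35 to 1.66 for PRA1.B6 and -1.35 to -0.96 for CSLA01. No endomembrane list member passed in any alternative (PRA1.B3 and SECE1, limma, none at an unadjusted p under 0.05 in the fit of 12 samples). PRA1.B3 changed sign with the values as deposited (-0.11), median scaling (-0.012), summed intensity (-0.11) and without WT 5 and 6 (-0.18), and SECE1 with the values as deposited (-0.066) and summed intensity (-0.058). Matched by symbol and synonym alone, the cell wall and glycosyltransferase lists had no members to test.

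In psak 243 probes were higher and 201 lower (limma, adjusted p under 0.05). Counted anew under each alternative, the numbers higher and lower were 146 and 275 with the values as deposited, 141 and 125 with median scaling, 146 and 263 with summed intensity, 99 and 55 with number pairs as a random block (consensus correlation 0.590), 0 and 0 with number pair means (465 at an unadjusted p under 0.05), 524 and 423 without psak 5 and 6, and 154 and 110 without WT 5 and 6. Leaving out 1 sample gave 180 to 305 higher and 147 to 278 lower. The cause of these changes was not tested. With the sample number as a replicate block 212 were higher and 221 lower, and the log2 fold changes were 1.53 ± 0.16 (SE) for PRA1.B6 and -1.14 ± 0.32 for CSLA01. With number pairs as a random block they were 1.53 ± 0.39 for PRA1.B6 and -1.25 ± 0.50 for CSLA01. With number pair means they were 1.53 ± 0.52 for PRA1.B6 and -1.26 ± 0.27 for CSLA01. Deviations of same-numbered psak and WT samples correlated at 0.08 to 0.24, and not every one exceeded 0.1, so the number was not taken to pair the samples. All 6 were above 0 and 11 of 12 samples correlated best with their own number, a hint from the data that same-numbered samples may share more than a number, which the labels do not settle. Scaling by summed intensity and leaving out WT 5 and 6 were chosen after seeing the data. The number of samples, and for CSLA01 its dim signal, limit the precision.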
